A study of Mus musculus with 64 samples.

Results

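A family of 9 receptor genes was followed through 64 RNA-seq libraries of mouse brain, namely the dopamine receptor genes Drd1, Drd2, Drd3, Drd4 and Drd5, the adenosine receptor genes Adora1 and Adora2a, and the muscarinic acetylcholine receptor genes Chrm1 and Chrm4. They were chosen by gene symbol, and they are 9 of the 46785 genes and 14 of the 112714 transcripts in the tables. The libraries came from the nucleus accumbens (NAc), a part of the ventral striatum, and the prefrontal cortex (PFCx) of adult male C57BL/6N mice, with 32 libraries from each tissue. Each mouse received 1 intraperitoneal injection and was killed 2 h later. The injections were haloperidol at 1 mg/kg, risperidone at 0.5 mg/kg, methamphetamine at 2 mg/kg, mianserin at 20 mg/kg, venlafaxine at 16 mg/kg, ketamine at 20 mg/kg, or saline. The vehicle of haloperidol and risperidone held a drop of HCl, which is not stated for the saline controls. Each drug has 4 libraries per tissue and saline has 8, which the labels divide into a saline set I and a saline set II of 4. The labels give no transgene or deletion. Whether a library stands for a separate animal, or an NAc and a PFCx library for the same animal, is not given in the labels, so every p-value measures the spread between libraries.

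Medium spiny neurons, the main cell type of the striatum, fall into a direct pathway, whose cells carry the D1 receptor (Drd1), and an indirect pathway, whose cells carry the D2 receptor (Drd2) together with the adenosine A2a receptor (Adora2a). D1, D5 (Drd5) and A2a receptors couple to stimulatory G proteins and raise cyclic AMP, whereas D2, D3 (Drd3), D4 (Drd4), adenosine A1 (Adora1) and muscarinic M4 (Chrm4) receptors couple to inhibitory G proteins and lower it. The muscarinic M1 receptor (Chrm1) couples to Gq and phospholipase C and is abundant in cortical and striatal neurons. Haloperidol and risperidone block D2 receptors, methamphetamine releases dopamine, mianserin blocks several monoamine receptors, venlafaxine blocks serotonin and noradrenaline reuptake, and ketamine blocks NMDA-type glutamate receptors.

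The values are FPKM, read coverage scaled for transcript length and library depth, summed over the annotated transcripts of a gene in each library, so that levels can be compared between genes per length. Differences are on the log2(FPKM + 1) scale, which understates the change of low genes. A difference was called when its limma p-value, with Benjamini-Hochberg adjustment over all 37034 genes with a mean of at least 0.1 FPKM in a tissue, was below 0.05. Of the 9 genes, 8 passed that filter and Drd4 did not. The depth of a library, estimated as aligned bases from the ratio of coverage to FPKM, lay between 1.52 and 3.26 gigabases (median 2.39). In the NAc, the 16 libraries of haloperidol, risperidone, methamphetamine and saline set I listed 85287 to 87827 transcripts above 0, against 107099 to 110556 in the other 16 NAc libraries and 108556 to 110852 in the PFCx. These 2 blocks are called sample set I and sample set II, and each drug comparison is given against all 8 saline libraries and against the 4 of its own set. In the PFCx the listed transcripts show no such blocks. There each drug was given the set it had in the NAc. The labels do not state this, so the own-set results of the PFCx rest on that assumption.

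In saline-treated mice the NAc was dominated by the receptors of the medium spiny neuron. Drd1 had the highest level of the 9 genes there, at 32.6 ± 3.13 FPKM (SD, n = 8), followed by Adora2a at 23.0 ± 2.46, Chrm1 at 16.3 ± 0.749, Drd2 at 14.6 ± 1.87, Adora1 at 13.9 ± 1.05 and Chrm4 at 11.9 ± 1.35. Drd3 followed at 1.58 ± 0.321 FPKM, Drd5 at 0.349 ± 0.103 and Drd4 at 0.0319 ± 0.0308. The ranges of neighbours in this order overlapped between Chrm1 and Drd2, Drd2 and Adora1, and Adora1 and Chrm4. Every library held more Drd1 than Adora2a, and more Adora2a than Chrm1, and these ranges did not overlap either.

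The PFCx had another order, led by Chrm1 at 16.8 ± 0.649 FPKM (SD, n = 8) and Adora1 at 13.7 ± 0.776. Chrm4 stood at 4.73 ± 0.315 FPKM and Drd1 at 3.12 ± 1.23. Adora2a was at 0.651 ± 0.709 FPKM, Drd2 at 0.485 ± 0.503, Drd5 at 0.408 ± 0.0871, Drd3 at 0.125 ± 0.0825 and Drd4 at 0.0892 ± 0.0298. From Chrm4 downwards the ranges of all neighbours overlapped.

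**Figure D1:**
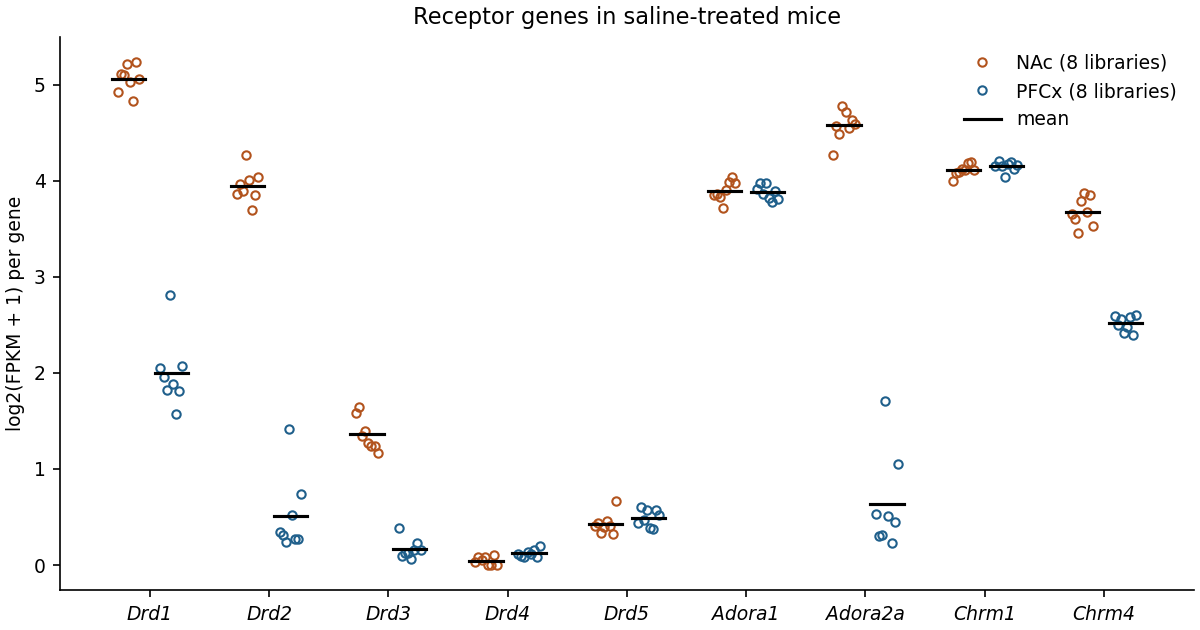
Level of the 9 receptor genes, as log2(FPKM + 1) per gene on the vertical axis, in the 8 saline libraries of the NAc (orange) and of the PFCx (blue), with the mean as a bar. Drd1, Drd2, Drd3, Adora2a and Chrm4 are higher in the NAc with no overlap of the libraries, whereas the Adora1 and Chrm1 libraries of the tissues overlap.

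Between the tissues, 5 of the 8 tested receptor genes were called, and all 5 were higher in the NAc. Over all genes, 33.9% were called in either direction and 7.16% were called higher in the NAc, and the median difference of all genes was -0.10. Of the 12564 genes called, 2653 were higher and 9911 lower in the NAc, a split that became 3558 and 7233 after each library was rescaled to the same 75th percentile. With coverage scaled by depth in place of FPKM it was 4297 and 4000, and the median difference was 0.02. The 5 receptor genes kept their call and direction in all 29 alternative settings, both scalings included.

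The receptors of the indirect pathway differed most. Adora2a ranged from 18.3 to 26.5 FPKM in the NAc, with a median of 23.0, and from 0.168 to 2.26 in the PFCx, with a median of 0.391. Its log2 difference was 3.94 (SE 0.173, adjusted p = 2.62e-11). Drd2 ranged from 11.97 to 18.3 FPKM in the NAc, with a median of 14.3, and from 0.184 to 1.66 in the PFCx, with a median of 0.255. The tissues did not overlap for either gene, as for 8.5% of all tested genes (2.83% with the NAc higher), and the log2 difference of Drd2 was 3.44 (SE 0.144, adjusted p = 1.39e-11). The mean FPKM was 35.3 times as high in the NAc for Adora2a and 30.0 times as high for Drd2. These ratios rested in part on PFCx saline set II library 4, which held the highest PFCx saline value of both genes, and without it they were 54.5 and 45.9. They also depended on the measure. With coverage scaled by depth in place of FPKM, the means were 22.9 against 0.448 for Adora2a and 14.5 against 0.254 for Drd2. Both ratios were then higher, and that of Drd2 was the larger.

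Drd1, the receptor of the direct pathway, ranged from 27.4 to 36.7 FPKM in the NAc, with a median of 32.9, and from 1.98 to 6.01 in the PFCx, with a median of 2.80. Its mean was 10.4 times as high in the NAc, with a log2 difference of 3.07 (SE 0.129, adjusted p = 1.55e-11). Drd1 thus kept a level in the PFCx above that of Drd2 and Adora2a in each of the 8 saline libraries. Chrm4, the M4 receptor, ranged from 9.99 to 13.7 FPKM in the NAc and from 4.27 to 5.08 in the PFCx, a log2 difference of 1.16 (SE 0.062, adjusted p = 2.71e-10). Drd3, the D3 receptor known for its place in the ventral striatum, ranged from 1.24 to 2.13 FPKM in the NAc and from 0.0409 to 0.304 in the PFCx, a log2 difference of 1.19 (SE 0.0706, adjusted p = 1.00e-09). For all 5 genes the exact permutation test of mean FPKM gave the smallest two-sided p that 8 against 8 libraries allow, 0.000155. Whether a tissue holds fewer cells of a type or less RNA per cell cannot be told apart in such bulk samples.

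Between the tissues, 3 receptor genes were not called. Adora1, the A1 receptor, ranged from 12.2 to 15.4 FPKM in the NAc and from 12.7 to 14.8 in the PFCx, a log2 difference of 0.02 (SE 0.049, adjusted p = 0.789). Within saline set I alone it was called, with a log2 difference of 0.15 and an adjusted p of 0.0480, and its adjusted p ranged from 0.0480 to 0.979 over the alternatives. Chrm1 ranged from 14.97 to 17.3 FPKM in the NAc and from 15.4 to 17.5 in the PFCx, a log2 difference of -0.04 (SE 0.038, adjusted p = 0.453). Drd5 was low in both tissues, at 0.253 to 0.583 FPKM in the NAc and 0.293 to 0.516 in the PFCx, with a log2 difference of -0.06 (SE 0.052, adjusted p = 0.356). Each of these 3 small differences changed sign under at least 1 alternative setting.

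Drd4 was close to the floor of the measurement. It ranged from 0 to 0.0779 FPKM in the NAc and from 0.0591 to 0.146 in the PFCx, and the ranges overlapped (exact permutation p = 0.00171). The lower confidence bound that Cufflinks gives was 0 in 32 of 32 NAc libraries and in 31 of 32 PFCx libraries, and 12 NAc libraries listed Drd4 at 0. All 12 belonged to sample set I, against 0 of 16 in sample set II, while the median depth of these sets in the NAc was 2.46 and 2.51 gigabases. The level of the D4 receptor transcript is therefore uncertain in both tissues. Drd3 in the PFCx had a lower bound of 0 in 21 of 32 libraries, so its level there is uncertain as well. The FPKM of the median transcript exceeded its depth-scaled coverage in all PFCx libraries and in NAc sample set II, by 0.03 to 0.08, but not in NAc sample set I. With coverage in place of FPKM the log2 differences between the tissues were 4.14 for Adora2a, 3.66 for Drd2, 3.21 for Drd1, 1.27 for Drd3 and 1.14 for Chrm4.

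The labelled tissues were checked against marker genes of their neurons. Penk, the enkephalin precursor of the indirect pathway, averaged 232 ± 20.6 FPKM in the NAc against 8.01 ± 5.94 in the PFCx, and Tac1, the substance P precursor of the direct pathway, averaged 63.3 ± 10.1 against 3.84 ± 1.59 (SD, n = 8). Slc17a7, the vesicular glutamate transporter of cortical projection neurons, averaged 129.5 ± 15.7 FPKM in the PFCx and 35.05 ± 13.8 in the NAc. Of 4 indirect-pathway markers, 3 were in the tables (Penk, Gpr6 and Sp9), and their summed level set 4 PFCx libraries apart. It was 20.7 and 21.6 FPKM in ketamine libraries 1 and 3, 24.5 in risperidone library 3 and 23.7 in saline set II library 4, against 4.62 to 12.9 in the other 28 PFCx libraries. In the same order, the direct-pathway markers of these 4 libraries summed to 13.3, 12.5, 16.3 and 10.1 FPKM, against 7.72 to 13.8 in the other 28. For these markers only risperidone library 3 lay above the others. The markers shared by both pathways summed to 90.1, 83.2, 105 and 108 FPKM, against 54.7 to 89.0. No marker of the indirect-pathway list was at 0 throughout a group.

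These libraries held the highest values of the indirect-pathway receptors, though not in all 4. Adora2a was 1.48, 0.901, 1.81 and 2.26 FPKM in those 4 PFCx libraries, in the order just given, against 0.168 to 1.08 in the other 28. Drd2 was 0.675, 0.629, 1.32 and 1.66 FPKM, against 0.166 to 0.783. Drd1 was 3.75, 3.44, 3.92 and 6.01 FPKM, against 1.97 to 3.93, so only the saline library stood clear of the rest for Drd1. The part of the marker level in these values was not tested. Of these 4, only saline set II library 4 is among the saline libraries compared between the tissues. Without that library the log2 difference was 4.09 for Adora2a (SE 0.108), 3.56 for Drd2 (SE 0.0873), 3.18 for Drd1 (SE 0.0779), 1.19 for Drd3 (SE 0.0752) and 1.15 for Chrm4 (SE 0.0647). The same 5 genes were called.

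**Figure D2:**
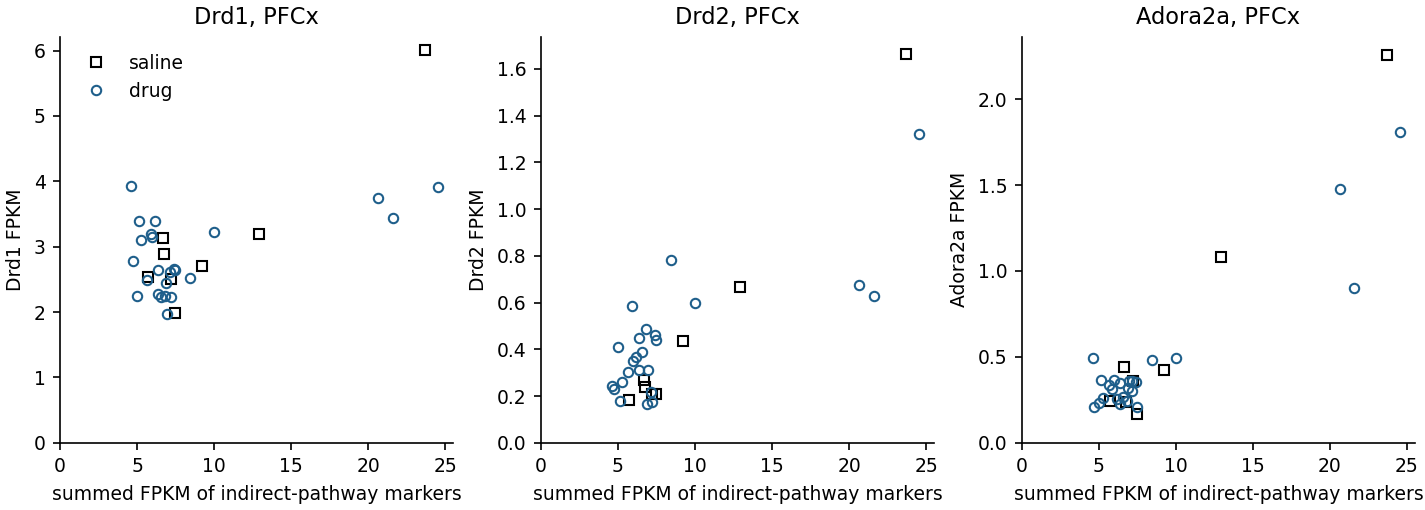
Level in FPKM of Drd1, Drd2 and Adora2a (vertical axes) in the 32 PFCx libraries against the summed FPKM of the indirect-pathway markers Penk, Gpr6 and Sp9 (horizontal axes), with saline libraries as squares and drug libraries as circles. The 4 libraries with a marker sum of 20.7 to 24.5 include the highest Adora2a and Drd2 values.

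Promoter sequences are shown for the receptor genes that differed between the tissues, with Adora1 beside them as a gene not called between them. RefSeq (GRCm38.p6) holds 9 promoter windows for 7 of the 9 genes, each of 250 bases before to 50 after a gene start, and Adora2a and Chrm1 are named only. Capitals mark the GC box, GGGCGG or its complement CCGCCC, searched on both strands with overlapping matches counted.
Drd1, chr13:54055609-54055908, minus strand: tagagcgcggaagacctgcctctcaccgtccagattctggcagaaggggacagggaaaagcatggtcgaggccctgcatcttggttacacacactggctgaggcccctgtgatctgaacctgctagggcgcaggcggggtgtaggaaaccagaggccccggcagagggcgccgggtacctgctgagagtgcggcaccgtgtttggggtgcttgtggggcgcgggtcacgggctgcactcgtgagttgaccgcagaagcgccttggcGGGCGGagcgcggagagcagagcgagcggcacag
Drd2, chr9:49340153-49340452, plus strand: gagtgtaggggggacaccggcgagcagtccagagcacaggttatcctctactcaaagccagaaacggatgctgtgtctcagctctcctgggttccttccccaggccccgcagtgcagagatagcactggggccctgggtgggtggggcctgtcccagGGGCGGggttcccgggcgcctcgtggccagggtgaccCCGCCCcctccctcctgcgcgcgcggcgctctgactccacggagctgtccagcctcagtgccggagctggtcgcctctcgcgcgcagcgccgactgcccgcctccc
Drd3, chr16:43761971-43762270, plus strand: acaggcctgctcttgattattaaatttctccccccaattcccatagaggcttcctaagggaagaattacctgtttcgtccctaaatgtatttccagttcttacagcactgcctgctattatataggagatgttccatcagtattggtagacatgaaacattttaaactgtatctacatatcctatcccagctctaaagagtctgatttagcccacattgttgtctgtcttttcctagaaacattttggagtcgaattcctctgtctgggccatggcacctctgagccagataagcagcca
Chrm4, chr2:91921939-91922238, plus strand: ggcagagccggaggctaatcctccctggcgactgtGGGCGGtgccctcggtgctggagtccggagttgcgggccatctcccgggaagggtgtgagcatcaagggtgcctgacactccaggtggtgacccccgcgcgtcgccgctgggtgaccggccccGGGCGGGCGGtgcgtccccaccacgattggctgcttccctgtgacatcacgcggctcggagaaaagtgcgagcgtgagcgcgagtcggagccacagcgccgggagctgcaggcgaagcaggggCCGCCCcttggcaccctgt
Adora1, chr1:134235408-134235707, minus strand: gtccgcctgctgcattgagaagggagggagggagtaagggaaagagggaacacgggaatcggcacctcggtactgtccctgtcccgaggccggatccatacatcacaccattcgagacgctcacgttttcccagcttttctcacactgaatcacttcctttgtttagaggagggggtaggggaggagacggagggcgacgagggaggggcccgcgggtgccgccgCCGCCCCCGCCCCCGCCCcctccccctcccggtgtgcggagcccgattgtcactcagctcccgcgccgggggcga

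Drd3 had no GC box in its window and a GC content of 42.0%, whereas the windows shown for the other 4 genes had a GC content of 65.7% (Drd1), 70.3% (Drd2), 70.7% (Chrm4) and 66.0% (Adora1). The Chrm4 window held 4 GC boxes, the Adora1 window shown held 3, that of Drd2 held 2 and the Drd1 window shown held 1. A further Adora1 window (chr1:134234807-134235106) held 0 GC boxes, and a further Drd1 window (chr13:54054731-54055030) held 1. Of all 32851 promoter windows, 35.7% held a GC box. None of the 9 windows held the letters TATAAA or TGACGTCA (the cAMP response element), which 13.6% and 1.79% of all windows held. The annotated transcript in the tables began at the RefSeq start for Drd1 and Drd3, 26 bases downstream of it for Adora1, 259 for Drd2 and 5060 for Chrm4. The Chrm4 transcript in the tables is a single exon of 1440 bases (chr2:91927249-91928688), so its FPKM counts reads of that exon and not of an upstream one.

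Drd2 is best known for a long and a short form, which differ by an alternatively spliced exon of the third cytoplasmic loop that contacts inhibitory G proteins. The tables hold a single Drd2 transcript, ENSMUST00000075764, and its listed length of 1549 bases equals the sum of its annotated exons, trimmed to the ends the tables list, with exon 6 of 8, against 1462 without it, so it is the long form. Exon 6 lies at chr9:49403194-49403280 (mm10, plus strand) and adds 87 bases, or 29 residues, shown here because it is the whole difference between the forms, in capitals between 15 bases of each neighbouring exon.
Drd2 exon 6: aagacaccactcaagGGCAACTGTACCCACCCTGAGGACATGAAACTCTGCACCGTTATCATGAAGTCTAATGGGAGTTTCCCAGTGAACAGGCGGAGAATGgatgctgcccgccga

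Reads of both forms count towards this transcript over the other exons, and the share of the long form cannot be computed from the tables. At the mm10 positions the tables list, Drd1 (chr13:54051186-54055658, minus strand), Drd3 (chr16:43762221-43822932, plus), Drd4 (chr7:141292006-141294999, plus), Drd5 (chr5:38319367-38322518, plus, a single exon), Adora2a (chr10:75316943-75334788, plus) and Chrm4 are also listed with 1 transcript each, and the 4 transcripts of Adora1 lie at chr1:134199223-134235431 on the minus strand. The GENCODE annotation of the same genome holds 2 further transcripts of Drd1, 3 of Adora2a, 1 of Drd3 and 1 of Drd4 that the tables do not list. Drd5 overlaps the antisense gene Gm26560, Adora1 meets Mybph on the opposite strand and Chrm1 overlaps the opposite-strand Gm22820. The use of strand in the quantification is not given in the sources used here, so reads of these overlapping genes cannot be told apart.

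Chrm1 had transcripts of different share in the tissues although its total was not called. Its main transcript, ENSMUST00000035444 (chr19:8664005-8681567, 2 exons), made up 78.2% ± 2.197 of Chrm1 FPKM in the NAc and 72.3% ± 1.75 in the PFCx (SD, n = 8). The longer ENSMUST00000163785 (chr19:8664005-8683587, 3 exons), which holds the stretch opposite Gm22820, made up 19.3% ± 2.50 and 25.7% ± 1.77. It ranged from 2.23 to 3.57 FPKM in the NAc saline libraries and from 3.92 to 4.84 in the PFCx, with no overlap, and its log2 difference was -0.36 (SE 0.068, adjusted p = 0.00178). Of all 86331 transcripts tested, 13.7% were called between the tissues. The exact permutation test of either share gave p = 0.000155. Both transcripts are divided by Cufflinks from shared reads, so a rise in the share of either lowers that of the other.

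Adora1 had 3 main transcripts, whose shares were not told apart between the tissues by the test. ENSMUST00000086465 made up 51.6% ± 6.87 of Adora1 FPKM in the NAc and 50.0% ± 8.09 in the PFCx (SD, n = 8, exact permutation p = 0.687). ENSMUST00000169927 made up 25.1% ± 6.50 and 26.9% ± 8.96 (exact permutation p = 0.647), and ENSMUST00000038191 made up 23.0% ± 3.77 and 22.6% ± 4.23 (exact permutation p = 0.864). The tissue difference of every share was smaller than its spread between libraries.

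After drug treatment in the NAc, Adora2a and Adora1 differed between the groups in the test over all 6 drugs, and their calls depended on the saline control. With all 8 saline libraries as control, the limma F test called 2 of the 8 tested genes, Adora2a (adjusted p = 0.00574) and Adora1 (adjusted p = 0.0348), against 36.9% of all genes. With only the saline libraries of the same sample set as control for each drug, 0 of 8 were called, against 1.63% of all genes. Adora2a then had an adjusted p of 0.0557 and Adora1 of 0.330, and 2 of the 8 had an unadjusted p below 0.05.

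Adora2a, which marks the indirect pathway, was lower after ketamine. It was 14.02, 18.0, 16.5 and 19.5 FPKM in the ketamine libraries of the NAc, against 25.3, 22.4, 23.9 and 23.2 in saline set I and 18.3, 22.8, 21.4 and 26.5 in saline set II. Of the ketamine libraries, 3 lay below every saline library, and the highest ketamine library lay above the lowest saline one. The log2 difference was -0.42 (SE 0.085, adjusted p = 0.0130), or a mean of 17.0 ± 2.32 FPKM against 23.0 ± 2.46, and it was the only called pair of gene and drug among 48 in the NAc (6 had an unadjusted p below 0.05). The share of all genes called was 1.97% for ketamine, 0.721% for haloperidol, 0.729% for risperidone, 0.194% for methamphetamine, 1.84% for mianserin and 1.83% for venlafaxine.

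The ketamine difference of Adora2a depended on the control and on a single library. Against the saline libraries of sample set II alone it was -0.37 (SE 0.098, adjusted p = 0.0732), and 0 of 48 pairs were then called (8 had an unadjusted p below 0.05). Without ketamine library 1, which had the lowest value, it was -0.33 with an adjusted p of 0.0505. Over all 46 alternatives the difference stayed between -0.48 and -0.33, with adjusted p-values from 0.000714 to 0.105. The exact permutation p of the ketamine libraries against all 8 saline libraries was 0.00808. Adora2a has 1 transcript in the tables, and among all 86331 transcripts it was called for ketamine with an adjusted p of 0.0381, where 0.2% of transcripts were called.

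Marker sums of the same libraries were compared with saline by their ranges, without a test. The summed level of the 7 markers shared by both kinds of medium spiny neuron was 360 to 521 FPKM after ketamine, against 423 to 573 in saline set II and 456 to 553 in saline set I. The 3 indirect-pathway markers summed to 187 to 242 FPKM after ketamine, against 213 to 278 in saline set II and 223 to 268 in saline set I. The 4 direct-pathway markers summed to 70.5 to 99.7 FPKM after ketamine, against 84.1 to 109 in saline set II, which overlapped, and 110 to 116 in saline set I, which did not. They summed to 61.5 to 97.7 FPKM after venlafaxine and 72.5 to 102 after mianserin, so low sums were not particular to ketamine. The 8 cortical projection neuron markers summed to 50.4 to 78.1 FPKM after ketamine, against 26.4 to 49.0 in saline set II and 54.2 to 73.6 in saline set I. The 5 oligodendrocyte markers summed to 658 to 723 FPKM after ketamine, against 512 to 575 in saline set II and 617 to 703 in saline set I, and the 5 astrocyte markers to 81.9 to 85.9, against 66.7 to 72.1 and 72.9 to 81.7. No marker of these lists was at 0 throughout a group, and their part in the Adora2a value was not tested.

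Haloperidol and methamphetamine also left Adora2a below the saline libraries of their own set without a call. It was 18.3, 17.0, 19.8 and 19.2 FPKM after haloperidol, a log2 difference of -0.29 against 8 saline libraries (SE 0.085, adjusted p = 0.113) and of -0.34 against saline set I (SE 0.098, adjusted p = 0.289). It was 19.5, 21.5, 20.4 and 20.4 FPKM after methamphetamine, a log2 difference of -0.15 (SE 0.085, adjusted p = 0.410) and of -0.20 against saline set I (SE 0.098, adjusted p = 0.794). Neither drug overlapped saline set I, and both overlapped saline set II. The exact permutation p against the own set was 0.0286 for each drug, the smallest that 4 against 4 libraries allow. Risperidone, the other D2 receptor blocker, left Adora2a at 21.6 to 23.7 FPKM, mianserin at 19.2 to 24.8 and venlafaxine at 18.1 to 24.7, all within the saline range but for a single venlafaxine library at 18.1.

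**Figure D3:**
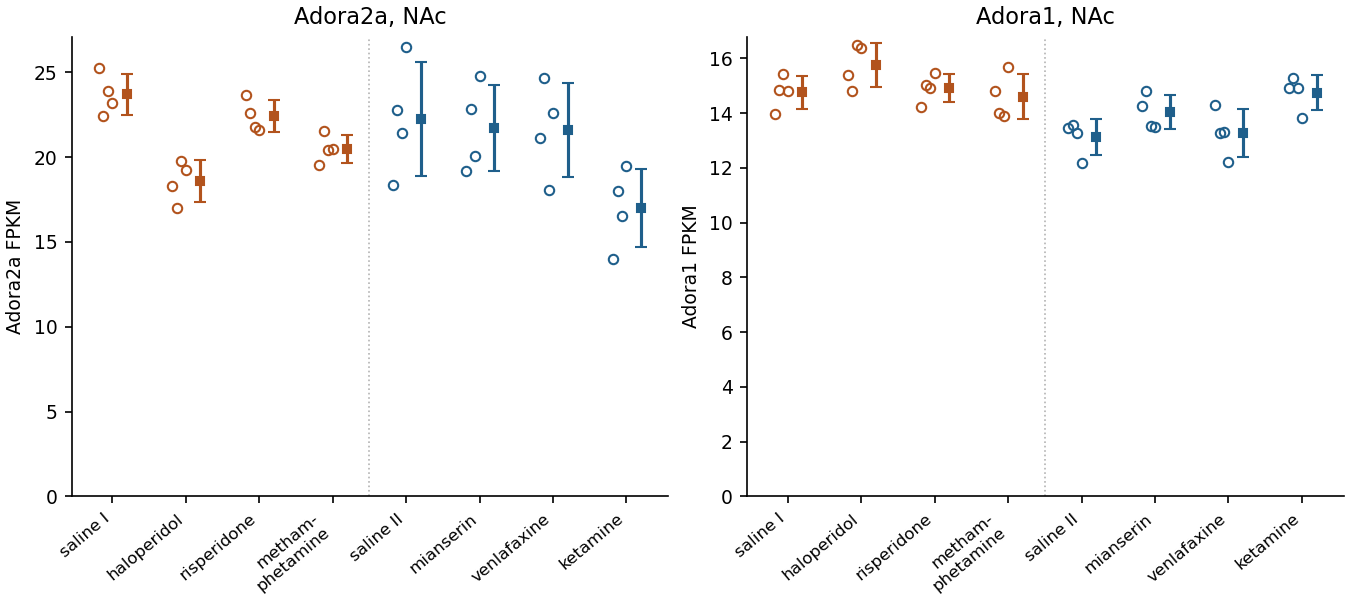
FPKM of Adora2a and Adora1 (vertical axes, from 0) in every NAc library, as circles by treatment, with the mean and SD of each group as a square and bar. Sample set I is orange and sample set II blue, and the dotted line divides them. Ketamine and haloperidol hold the lowest Adora2a group means, 17.0 and 18.6 FPKM, and Adora1 differs between the saline sets.

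The F test of Adora1 moved with the saline sets. Adora1 was 13.95, 14.8, 15.4 and 14.8 FPKM in saline set I of the NAc and 13.5, 13.6, 13.3 and 12.2 in saline set II, so that the sets, both untreated with drug, did not overlap (exact permutation p = 0.0286). The share of all genes whose saline sets do not overlap was not counted, so this may be common. After haloperidol it was 15.4, 14.8, 16.5 and 16.4 FPKM, a log2 difference of 0.17 against 8 saline libraries (SE 0.051, adjusted p = 0.123) and of 0.09 against saline set I (SE 0.050, adjusted p = 0.894). After ketamine it was 14.9, 15.3, 14.9 and 13.8 FPKM, a log2 difference of 0.08 against 8 saline libraries (SE 0.051, adjusted p = 0.386) and of 0.16 against saline set II (SE 0.050, adjusted p = 0.174). The call of the F test ended when any of 6 libraries was left out, haloperidol libraries 1, 3 and 4 and venlafaxine libraries 2, 3 and 4, with adjusted p-values from 0.0527 to 0.0832. Among its transcripts, ENSMUST00000038191 was called by the F test over transcripts with an adjusted p of 0.00972 against 11.6% of all transcripts, and with 0.849 against the own saline sets. It was 3.87 to 5.04 FPKM after haloperidol, 3.14 to 4.36 in saline set I and 2.41 to 3.17 in saline set II.

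Neither dopamine receptor of the main medium spiny pathways was called in the NAc after any drug. Drd1 was 26.3, 29.5, 30.5 and 26.9 FPKM after methamphetamine, against 27.4 to 36.7 in the 8 saline libraries, a log2 difference of -0.19 (SE 0.071, adjusted p = 0.315) that was -0.17 against saline set I (SE 0.082, adjusted p = 0.794). It lay below the saline mean of 32.6 in all 4 methamphetamine libraries, with overlapping ranges. The other drugs gave Drd1 log2 differences of -0.13 to 0.04 against 8 saline libraries. The methamphetamine difference was called against saline set II only (adjusted p = 0.0412). The F test of Drd1 had an adjusted p of 0.115 and passed the threshold with 75th-percentile rescaling (0.0123) or without saline set I library 2 (0.0415). Drd2, the target of both antipsychotics, was 11.9, 12.2, 15.1 and 13.5 FPKM after haloperidol and 14.4, 15.9, 13.8 and 14.9 after risperidone, against 11.97 to 18.3 in saline. Its log2 differences ranged from -0.13 to 0.03 over the 6 drugs, and its F test had an adjusted p of 0.724.

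The FPKM of Drd3 differed between the saline sets in the NAc, and its drug differences depended on which set was the control. It was 1.42, 1.36, 1.36 and 1.24 FPKM in saline set I and 2.00, 2.13, 1.53 and 1.63 in saline set II, with no overlap (exact permutation p = 0.0286). On depth-scaled coverage the sets did overlap, at 1.11 to 1.46 in saline set I and 1.44 to 2.06 in saline set II. Here too, the share of all genes without overlap of the saline sets was not counted. After haloperidol it was 1.88, 1.92, 2.19 and 1.97 FPKM, all above saline set I, and only the highest lay above saline set II, which reached 2.13. The log2 difference was 0.22 against 8 saline libraries (SE 0.125, adjusted p = 0.344) and 0.35 against saline set I (SE 0.138, adjusted p = 0.623). Methamphetamine gave 2.07, 1.63, 1.95 and 1.94 FPKM, also above saline set I, with a log2 difference of 0.31 against that set (SE 0.138, adjusted p = 0.782).

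The remaining receptor genes of the NAc gave no call. Chrm4 was 7.37, 9.84, 9.25 and 11.9 FPKM after ketamine, against 9.99 to 13.7 in saline, a log2 difference of -0.29 (SE 0.116, adjusted p = 0.151) that was -0.24 against saline set II (SE 0.135, adjusted p = 0.597). Its F test had an adjusted p of 0.0680 and passed the threshold when ketamine library 4 or venlafaxine library 4 was left out, with 0.0287 and 0.0386, whereas it was 0.923 with the own saline sets. Chrm1 stayed between log2 differences of -0.07 and 0.04 over the 6 drugs. Drd5 was 0.339, 0.1996, 0.0935 and 0.207 FPKM after methamphetamine against 0.253 to 0.583 in saline, a log2 difference of -0.16 (SE 0.073, adjusted p = 0.364). Drd4 after ketamine, at 0.0964 to 0.147 FPKM, lay above all 8 saline libraries at 0 to 0.0779, but its lower confidence bound was 0 in every NAc library. It was the only 1 of 54 pairs of gene and drug in the NAc without overlap with the 8 saline libraries, and 6 of 54 did not overlap the saline set of their own. Of the 48 pairs of the 8 tested receptor genes these were 0 and 5, whereas over all tested genes 1.39% and 3.6% of pairs did not overlap.

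**Figure D4:**
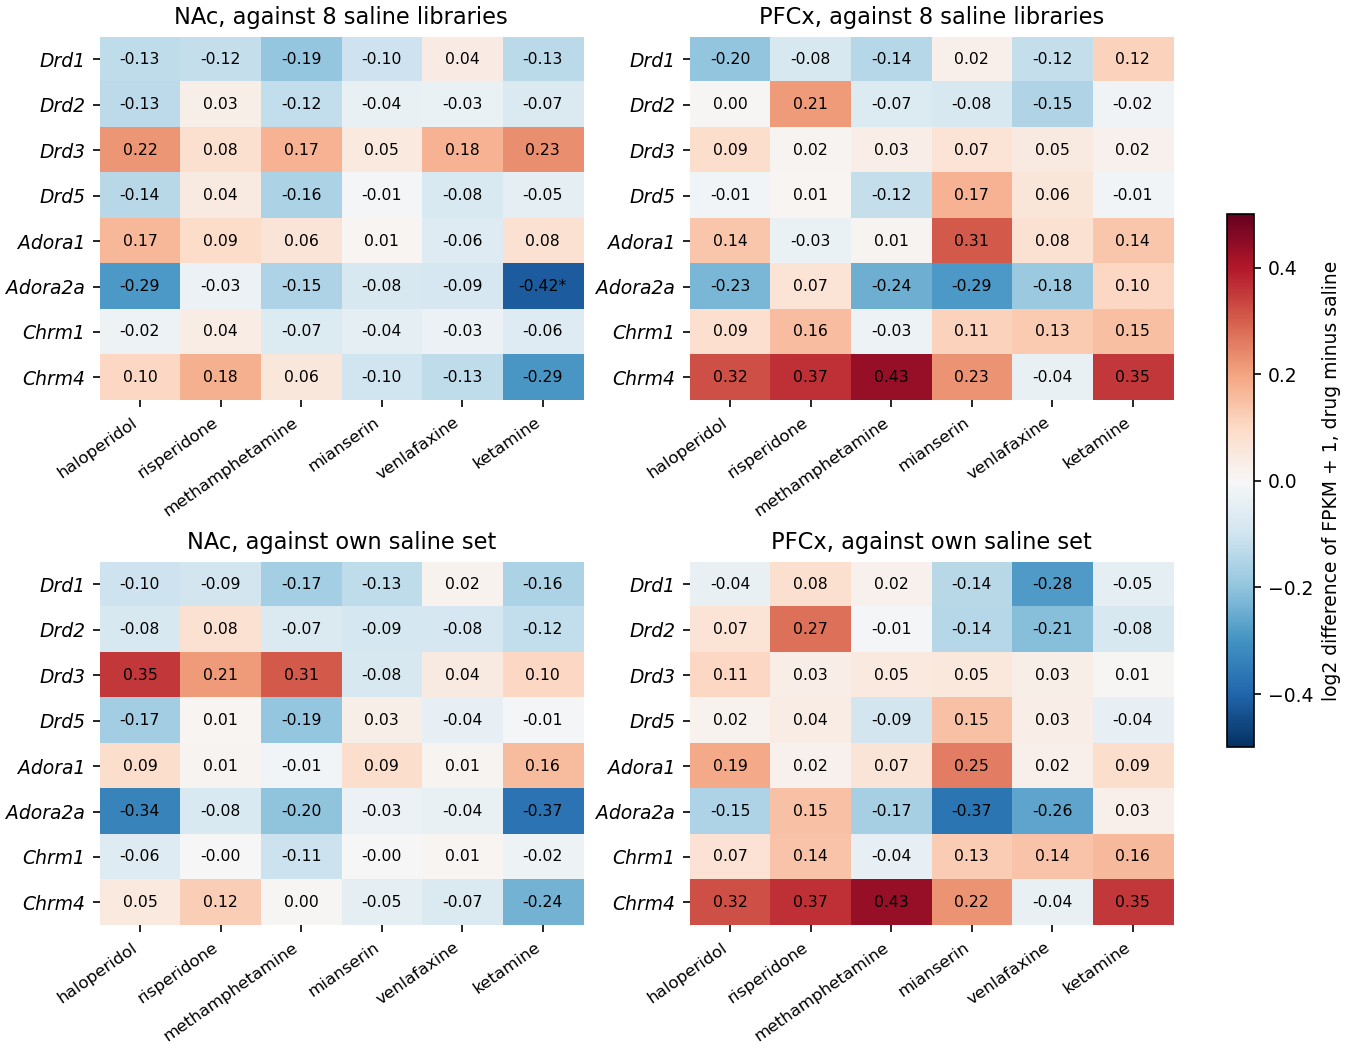
Log2 difference of FPKM + 1 (drug minus saline, color scale from blue for lower to red for higher) of the 8 tested receptor genes for each drug in the NAc and the PFCx, against all 8 saline libraries (top) and against the 4 saline libraries of the same sample set (bottom). The asterisk marks the called value, Adora2a after ketamine in the NAc at -0.42, and no other value was called.

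In the PFCx no receptor gene was called after a drug, and the largest log2 differences were those of Chrm4, up to 0.43 after methamphetamine. The F test over the 6 drugs called 0 of the 8 tested receptor genes, against 3.34% of all genes (1.45% with the own saline sets), and its lowest adjusted p was 0.0866 for Chrm4. Of the 8, 3 had an unadjusted p below 0.05. Of the 48 pairs of gene and drug, 0 were called and 9 had an unadjusted p below 0.05. Over all genes, 0.162% were called for haloperidol, 0.51% for risperidone, 0.351% for methamphetamine, 0.667% for mianserin, 0.0054% for venlafaxine and 0.0162% for ketamine.

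Chrm4, which lowers cyclic AMP in the cells that carry it, was higher than in saline in every library of 3 drugs. It was 4.57, 4.99, 4.27 and 5.08 FPKM in saline set I of the PFCx and 5.03, 4.67, 4.89 and 4.34 in saline set II. It was 6.86, 6.42, 5.22 and 6.22 FPKM after haloperidol, 6.48, 5.44, 7.87 and 5.91 after risperidone, and 7.40, 7.07, 5.60 and 6.97 after methamphetamine. None of these 12 libraries overlapped the 8 saline libraries, and the exact permutation p was 0.00404 for each drug, the smallest that 4 against 8 libraries allow.

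The limma differences of Chrm4 in the PFCx were 0.32 for haloperidol (SE 0.125, adjusted p = 0.242), 0.37 for risperidone (adjusted p = 0.168) and 0.43 for methamphetamine (adjusted p = 0.188), so that the difference failed the correction over all genes. Against saline set I the values were 0.32, 0.37 and 0.43, with adjusted p-values of 0.813, 0.643 and 0.540. Ketamine gave 8.49, 6.09, 6.93 and 4.36 FPKM, a log2 difference of 0.35 (adjusted p = 0.498), and its 2 libraries with raised indirect-pathway markers held the highest values, 8.49 and 6.93. Risperidone library 3, also high in these markers, held 7.87 FPKM, but saline set II library 4, the remaining one, held 4.34, the lowest of the 4 in its set. Without the 4 libraries high in indirect-pathway markers the difference was 0.09 for ketamine, 0.26 for risperidone, 0.31 for haloperidol and 0.42 for methamphetamine. The ketamine value then rested on only 2 libraries, at 6.09 and 4.36 FPKM. Venlafaxine gave 3.58 to 5.31 FPKM, a log2 difference of -0.04. The drugs shared the same saline libraries, so these values are not independent of each other.

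**Figure D5:**
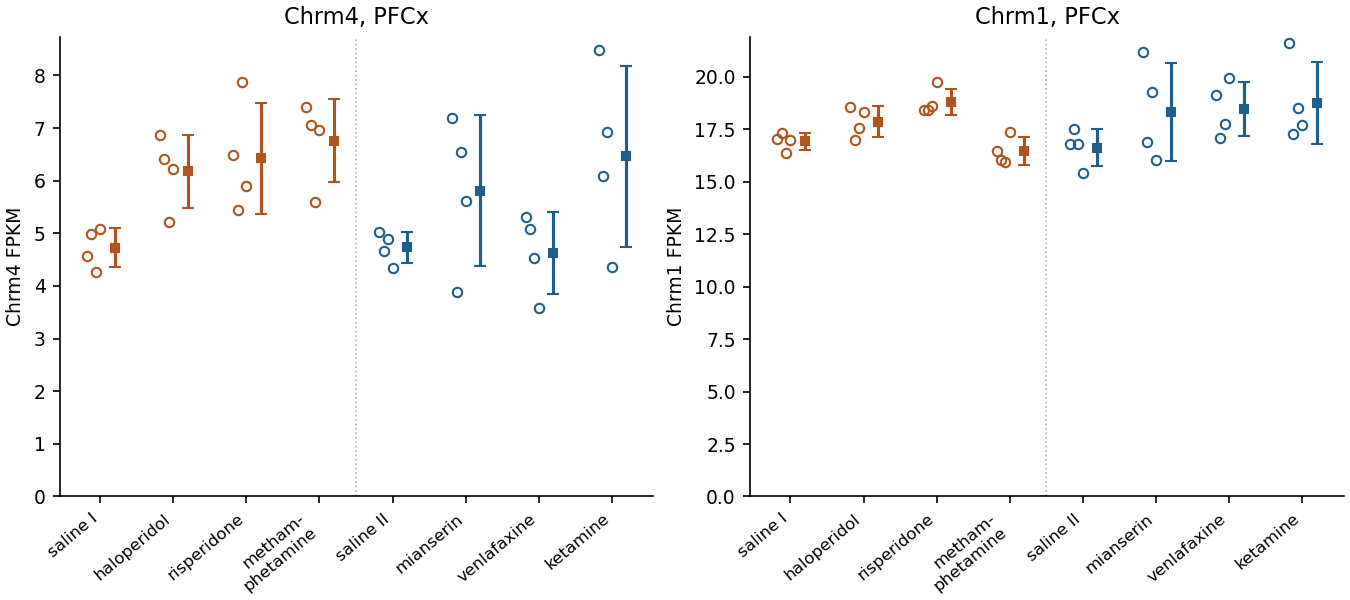
FPKM of Chrm4 and Chrm1 (vertical axes, from 0) in every PFCx library, as circles by treatment, with the mean and SD of each group as a square and bar. Sample set I is orange and sample set II blue. The haloperidol, risperidone and methamphetamine libraries of Chrm4 all lie above the saline libraries, which reach 5.08 FPKM, and the risperidone libraries of Chrm1 lie above 17.5 FPKM, the highest saline value.

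Other receptor genes of the PFCx stood apart from saline for single drugs. Adora1 after mianserin was 18.9, 17.3, 18.0 and 14.9 FPKM, against 12.7 to 14.8 in saline, without overlap, and its log2 difference of 0.31 (SE 0.087, adjusted p = 0.121) was 0.25 against saline set II (SE 0.099, adjusted p = 0.229). Chrm1 after risperidone was 18.4, 18.4, 18.6 and 19.7 FPKM, against 15.4 to 17.5, without overlap, a log2 difference of 0.16 (SE 0.060, adjusted p = 0.216). Drd5 after mianserin was 0.551, 0.604, 0.640 and 0.549 FPKM, against 0.293 to 0.516, without overlap, a log2 difference of 0.17 (SE 0.072, adjusted p = 0.413). The median half-width of the Cufflinks confidence interval of Drd5 in the PFCx was 40.1% of the value. The exact permutation p was 0.00404 for each of the 3. In all, 6 of 54 pairs of gene and drug in the PFCx did not overlap the 8 saline libraries, and 11 of 54 had an exact p below 0.05, with no adjustment over the 54. All of these fell among the 48 pairs of the 8 tested genes, and over all tested genes 1.05% of pairs did not overlap and 8.05% had an exact p below 0.05. Against the saline set of their own, 6 of 48 did not overlap, against 5.22% over all tested genes. The pairs share saline libraries, so they are not independent.

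Among the receptor transcripts, only 1 was called for a drug in the PFCx, the Chrm1 transcript ENSMUST00000163785 after risperidone. It was 5.43, 5.74, 5.12 and 5.56 FPKM, against 4.16, 3.92, 4.09 and 4.84 in saline set I and 4.36, 4.54, 4.43 and 4.18 in saline set II, with no overlap. Its log2 difference was 0.28 (SE 0.058, adjusted p = 0.0349), where 0.158% of transcripts were called, and against saline set I it was 0.30 (SE 0.068, adjusted p = 0.134). In the NAc it was 4.10, 3.75, 3.79 and 4.195 FPKM after risperidone, also above all 8 saline libraries at 2.23 to 3.57, with a log2 difference of 0.26 (SE 0.095, adjusted p = 0.359) that was 0.22 against saline set I (SE 0.110, adjusted p = 0.801). How many of all transcripts lacked overlap was not counted. Its mean share of Chrm1 FPKM in the PFCx was 29.1% after risperidone, 29.1% after mianserin and 28.4% after methamphetamine. It was 25.3% to 27.2% after the other drugs and 25.7% in saline. In the NAc the mean share was 20.9% to 23.6% after the 6 drugs and 19.3% in saline. The main Chrm1 transcript ENSMUST00000035444 was 13.0 ± 0.288 FPKM after risperidone in the PFCx and 12.1 ± 0.632 in saline.

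The dopamine receptor genes of the PFCx showed no call and wide spread. Drd1 was 1.97 to 3.20 FPKM after haloperidol, 2.25 to 3.92 after risperidone, 2.24 to 3.23 after methamphetamine, 2.64 to 3.39 after mianserin, 2.24 to 3.93 after venlafaxine and 2.79 to 3.75 after ketamine, all within the saline range of 1.98 to 6.01 but for a haloperidol library at 1.97. The 6.01 was saline set II library 4, high in indirect-pathway markers. Saline set I reached 3.20, and the highest values of all drugs but haloperidol lay above that. Drd2 reached 1.32 FPKM in risperidone library 3 and 0.783 in risperidone library 4, and was 0.675 or lower in the other drug libraries. Its log2 difference for risperidone was 0.21, or 0.18 without the libraries high in indirect-pathway markers (adjusted p = 0.5996). Adora2a had log2 differences of -0.29 to 0.10 and an adjusted p of 0.776 in the F test.

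The difference of a drug effect between the tissues was tested in a model of all 64 libraries. It was called for 0 of 48 pairs of gene and drug, and 7 had an unadjusted p below 0.05. Over all genes, 0.313% were called for ketamine, 0.119% for mianserin, 0.0513% for venlafaxine, 0.0405% for haloperidol, and 0% for risperidone and methamphetamine. The lowest adjusted p among the receptor genes was that of Chrm4 after ketamine, with a difference of -0.29 in the NAc, 0.35 in the PFCx and -0.65 between them (SE 0.173, adjusted p = 0.0619). It was -0.59 with the own saline sets (adjusted p = 0.127) and -0.39 without the PFCx libraries high in indirect-pathway markers (adjusted p = 0.375). The latter fit left out PFCx ketamine libraries 1 and 3 of the 4. Adora1 after mianserin followed, with -0.30 (SE 0.1003, adjusted p = 0.169).

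Genes of the signalling chain behind the receptors were read from 6 lists. In the tissue comparison all 14 genes of Golf and cyclic AMP signalling were called, 10 higher and 4 lower in the NAc, with a median log2 difference of 1.40 against -0.10 for all genes. Over all genes 33.9% were called, and 9911 of the 12564 called were lower in the NAc. Gng7, a G protein gamma subunit of the striatum, was 79.7 FPKM in the NAc and 8.48 in the PFCx (log2 difference 3.10). Adcy5, the main striatal adenylyl cyclase, was 65.7 and 9.48 FPKM (2.68), and Gnal, the alpha subunit Golf, was 50.7 and 11.7 (2.04). Of the 10 genes of Gi, Go and Gq signalling, 5 were called and all were lower in the NAc, with a median of -0.21. They were led by the adenylyl cyclase Adcy1 (12.8 FPKM in the NAc, 44.1 in the PFCx, log2 difference -1.72), the phospholipase Plcb4 (-1.06) and the inhibitory subunit Gnai1 (-0.62).

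Of the genes that handle the transmitters, 5 of 7 muscarinic and acetylcholine genes were called higher and 2 lower in the NAc, with a median of 0.61. The cholinergic neuron genes Chat, Slc5a7 and Slc18a3 were higher by 0.89, 1.17 and 0.61 on the log2 scale. Of 8 dopamine genes 2 were higher and 3 lower (median -0.07), with Th, the rate-limiting enzyme of dopamine synthesis, at 1.26 FPKM in the NAc against 0.456 in the PFCx (0.63), and the degrading enzyme Maoa lower (-0.41). Of 9 adenosine genes 2 were higher and 2 lower (median -0.07), among them Nt5e, the ecto-enzyme that forms adenosine, at 2.91 and 1.20 FPKM (0.83). Of 14 tested receptor regulators 4 were higher and 4 lower (median 0.03), led by Rgs9, an accelerator of G protein inactivation in medium spiny neurons (65.6 and 5.23 FPKM, log2 difference 3.51).

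After drugs in the NAc, the F test with 8 saline libraries called 5 of 14 genes of Golf and cyclic AMP signalling, 4 of 10 of Gi, Go and Gq signalling, 4 of 8 dopamine genes, 1 of 9 adenosine genes, 0 of 7 acetylcholine genes and 7 of 14 regulators, against 36.9% of all genes. With the own saline sets, where 1.63% of all genes were called, it called only 1 adenosine gene, Nt5e (adjusted p = 0.00710), and 1 regulator, Rgs2, which inactivates Gq (adjusted p = 0.0452). Against 8 saline libraries Nt5e rose most after risperidone, to 4.12 ± 0.345 FPKM (log2 difference 0.39, SE 0.077), and Rgs2 fell most after mianserin, to 9.65 ± 0.662 FPKM from 13.0 ± 1.52 (log2 difference -0.39, SE 0.073). In the PFCx the F test called 0 genes of these lists with either control.

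Within groups, the genes most like each receptor across the 32 libraries of a tissue were sought among 15094 genes of the NAc and 15699 of the PFCx with a mean of at least 1 FPKM. The values are deviations from group means, and since the highest among so many genes are named, they carry no p. In the NAc, Drd1 went with Pde1b (Pearson r = 0.89, Spearman rho = 0.91, and r = 0.90 without the 2 libraries farthest from the median), Syndig1l and Ngef. Adora2a went with Adcy5 (r = 0.86, rho = 0.88, and 0.85 without 2 libraries), Pde10a and Asic4. Chrm4 went with Adra2c (r = 0.84, rho = 0.86, and 0.79), Lingo3 and Pomgnt2. Drd2 went with Gng7 (r = 0.76, rho = 0.77, and 0.76), Ryr1 and RP24-168I21.1.

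Among the receptors themselves, Drd1 and Adora2a of the NAc had r = 0.71 (rho = 0.73), Drd1 and Drd2 had r = 0.55 (rho = 0.58), and Adora2a and Chrm4 had r = 0.57 (rho = 0.51). Chrm1 stayed between -0.16 and 0.14 with the others there, and Adora1 between -0.28 and 0.12. Lower likeness in the NAc was found for Adora1 with Rph3a (r = 0.75), Chrm1 with Pnmal1 (r = 0.69) and Drd3 with Gm13123 (r = 0.64). In the PFCx, Adora1 went with Lynx1 (r = 0.91, rho = 0.92, and 0.90 without 2 libraries), Chrm1 with Gm10359 (r = 0.90, rho = 0.84, and 0.86), Chrm4 with 2310011J03Rik (r = 0.80, rho = 0.75, and 0.75) and Drd1 with Scn4b (r = 0.77, rho = 0.67, and 0.73), Ppp1r1b and Rgs9. The libraries share depth and dissection, which such values hold too.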

How the data were processed

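Mouse NAc and PFCx RNA, depleted of ribosomal RNA, was read single-end on an Ion Torrent instrument. Per the submitters' processing notes and the study's methods, the authors aligned reads with Tmap and TopHat2 2.0.1 to mm10 and quantified Ensembl transcripts with Cufflinks 2.2.1. The deposited FPKM of each transcript and the deposited coverage (signal) per transcript were used, and the tables hold no counts. Depth per library was therefore estimated as the sum of coverage times transcript length, and Cufflinks' confidence bounds gave the precision of low values.

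FPKM was summed over the transcripts of each gene identifier. Genes with a mean of at least 0.1 FPKM in either tissue were fitted as log2(FPKM + 1) with limma 3.58.1 in R 4.3.3, 1 model per tissue for drugs, 1 for the 16 saline libraries and 1 of all 64 libraries for the interaction, with Benjamini-Hochberg adjustment over all genes. Two-sided exact permutation tests of mean FPKM used SciPy 1.17.1. The scripts were tested on simulated data. Genes were named by rule: the 9 receptor genes, their transcripts with a mean of at least 0.1 FPKM, up to 3 genes of each list with the lowest adjusted p past 0.05, and the 3 genes of highest Pearson r. The members and lists were chosen with earlier results of these data known. Alternatives were another pseudocount, other filters, 75th-percentile rescaling, the top transcript, coverage in place of FPKM, other variance models, a replicate block, either saline set, the own saline set, each library left out, and the PFCx libraries high in indirect-pathway markers left out. The last, and coverage with the own saline set, were chosen after seeing the data.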

Additional observations from a re-analysis of the deposited data

Results flagged for a closer look

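In each group of 4 libraries the highest and lowest value of each receptor gene was compared with its nearest neighbour by Dixon's criterion. Of 143 groups checked, 10 had such a value, where chance gives about 5%. Drd2 and Adora2a in saline set II library 4 of the PFCx were 1.66 and 2.26 FPKM, against 0.184 to 0.271 and 0.236 to 0.442 in the other 3, and its indirect-pathway marker sum was 23.7 FPKM. Adora2a in risperidone library 3 of the PFCx was 1.81 FPKM, against 0.244 to 0.482, with a marker sum of 24.5. The part of those markers in these values was not tested.

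In venlafaxine library 4 of the PFCx, Drd1 was 3.93 FPKM, against 2.24 to 2.49 in the other 3, and Drd5 was 0.704, against 0.371 to 0.421. Its marker sum was 4.62 FPKM, the lowest of the PFCx. Chrm1 in risperidone library 4 of the PFCx was 19.7 FPKM, against 18.4 to 18.6. Drd3 in saline set II library 1 of the PFCx was 0.304 FPKM, against 0.0648 to 0.0934. Drd4 gave 3 such values at the floor, 0.0349 FPKM in methamphetamine library 2 of the NAc and 0.0779 in saline set I library 3 of the NAc, each with the other 3 libraries listed at 0, and 0.121 in haloperidol library 2 of the PFCx, against 0.0345 to 0.0445. No drug effect of a receptor gene differed between the tissues past the threshold.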

How the results depend on the processing

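Of 43 results for single genes, 31 stayed on their side of the threshold under every alternative and 12 changed side under at least 1. Of the 27 with a direction, the tissue differences of Drd5, Adora1 and Chrm1, none of them called, changed sign under at least 1 alternative, and the 6 called ones did not. The tissue difference in saline called 5 receptor genes, and 5 to 6 under the alternatives. For the drug effect in the NAc, the count of 2 became 1 with a pseudocount of 0.1, a mean of at least 1 FPKM, the top transcript or the replicate block, 0 with the own saline set, on FPKM or on coverage, and 3 with no filter. It ranged from 1 to 3 without single libraries. For single drug calls of members in the NAc, the count of 1 became 2 with no filter, 2 with 75th-percentile rescaling, 2 with saline set I only, 4 with saline set II only, and 0 with the own saline set, on FPKM or on coverage, and it ranged from 0 to 1 without single libraries, with 0 only without ketamine library 1. For the drug effect in the PFCx, the count of 0 became 1 with 75th-percentile rescaling, and it ranged from 0 to 1 without single libraries, with 1 only without ketamine library 4 or mianserin library 2. For single drug calls of members in the PFCx, the count of 0 became 1 with 75th-percentile rescaling, Adora1 after mianserin. For a drug effect differing between the tissues, the count of 0 became 1 with a pseudocount of 0.1, 1 with 75th-percentile rescaling and 2 with saline set I only, and it ranged from 0 to 1 without single libraries, with 1 only without NAc saline set II library 1, 2 or 3 or PFCx ketamine library 4. The causes were not tested.

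With replicate number as a replicate block, the F test in the NAc called 13595 genes against 13674, and the Adora1 drug effect in the NAc had an adjusted p of 0.0535. Same-numbered NAc libraries had a mean correlation of 0.0598 (-0.165 to 0.274), against -0.0199 for NAc libraries of different number. In the PFCx the means were 0.0704 (-0.256 to 0.496) and -0.0223. Whether the numbers pair the libraries cannot be told from these small means. Over all genes, the 13674 called in the NAc became 4944 with a mean of at least 1 FPKM, 6887 on coverage, 603 with the own saline set and 597 on coverage with that set. In the PFCx 1238 became 2340 with saline set I only, 4179 with saline set II only, 536 with the own saline set and 579 on coverage with that set. The tissue count of 12564 became 7110 with a mean of at least 1 FPKM, 8297 on coverage and 7709 with saline set II only. The share of the long Drd2 form and its alternatives were not run, since 1 Drd2 transcript is listed. Precision was low for Drd4 in both tissues and for Drd3, Drd2 and Adora2a in the PFCx, where the median half-width of the confidence interval was 60.0% of the value for Drd2 and 48.2% for Adora2a.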
